A study of Rattus norvegicus with 36 samples.

Results

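Expression of 10 genes of the lung vasculature and of its main growth factor was followed after a single instillation of crystalline silica in rats. The genes were Vegfa and its receptors Flt1 and Kdr, the angiopoietin receptor Tek, the junction and surface genes Pecam1, Cdh5 and Plvap, and the capillary genes Aplnr, Car4 and Ednrb. They were taken by name from the gene names on the array, where all 10 of 10 were found among 25597 gene names, and all 10 passed the filter on dim probes that left 23721 genes to test. At D180, 9 of the 10 genes were lower in exposed than in vehicle rats at an adjusted p under 0.05. That threshold was met by 1 gene, also lower, at D1 and by 0 at D30. Over all genes tested, the shares lower at this threshold were 9.11% (D180), 8.76% (D1) and 1.27% (D30). Without the threshold, the log2 fold change was below 0 in 10, 9 and 10 of the 10 genes, in the same order. Between time points, a different change was called only for Aplnr, from D1 to D180. The call was lost with slide or scan date as a random block, and without any 1 of 12 rats.

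Female Sprague Dawley rats, 13 weeks old at instillation, received either 10 mg of DQ-12 per rat, a crystalline silica (quartz) dust, in saline (the DQ-12 groups), or the saline vehicle alone (the vehicle groups), in both cases once and into the trachea. Lungs were taken 1, 30 and 180 days later (D1, D30, D180), and RNA came from the accessory lobe. Each of the 6 groups held 6 rats, and the RNA of each rat was labeled with Cy3 and hybridized to its own Agilent rat array, giving 36 arrays. Whole tissue of the lobe was used and no cell type was isolated. A changed mix of cells and a changed amount of a gene's RNA per cell therefore cannot be told apart in any value below.

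The inner surface of lung vessels is a layer of endothelial cells. In the alveolar wall these cells form the capillary bed across which gas is exchanged, and VEGF made largely by the neighboring alveolar epithelium keeps this bed alive. The ligand acts mainly through Kdr (VEGFR2), while Flt1 (VEGFR1) binds it tightly and limits its access to Kdr. Alveolar capillaries hold at least a pair of cell types, the large aerocytes, which carry Car4 and Ednrb, and the general capillary cells, which carry Aplnr.

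The values below are log2 signals after quantile normalization of background-corrected intensities, and changes are log2 fold changes (FC) of DQ-12 against vehicle rats. A gene was called when its adjusted p was under 0.05 (limma fitted to all 36 arrays, Benjamini–Hochberg adjustment over all genes at each time point), and the 2-fold threshold of the study is given beside it. Levels of different genes come from different probes and were not compared. Between 51.4% and 75.5% of probes were well above background per array, 0 spots were saturated, and the median correlation between arrays of the same group was 0.974 to 0.981. Slides numbered 19 and scan dates 11. At D1, the 6 DQ-12 arrays shared their scan date with 1 vehicle array only. At D30 both scan dates held both groups, and at D180 this was so for 2 of 6 dates, which together held 4 arrays of each group.

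The probe used for each gene lay, in the rn4 coordinates of the array files, at chr9:10535933-10535992 for Vegfa (A_64_P099886), chr12:7958826-7958885 for Flt1 (A_44_P151138), chr5:115196108-115196167 for Tek (A_44_P1082389), chr10:96056219-96056278 for Pecam1 (A_42_P826191) and chr19:777961-778020 for Cdh5 (A_43_P14288). It lay at chr16:18668570-18668629 for Plvap (A_64_P137784), chr3:68368367-68368426 for Aplnr (A_44_P196146), chr10:73237515-73237574 for Car4 (A_42_P580973) and chr15:87890957-87891015 for Ednrb (A_44_P355013). The Kdr probe (A_43_P11686) is unmapped in the array files. Pecam1, Cdh5, Plvap and Ednrb were on the minus strand. Each of these 10 probes was well above background on all 36 arrays. The position within the gene (exon, intron or untranslated region) was not analysed here, because no annotation of that build was used.

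At D180, 9 of the 10 genes were called, all of them lower. Among all genes tested 17.1% were called at D180, and 9.11% were called and lower (2162 of 4045 calls, or 2879 of 4497 after scaling to the 75th percentile of each array in place of quantile normalization, which moved the median of all genes to -0.11). Their log2 FC ranged from -1.01 to -0.45 with a median of -0.64, and the median over all genes tested was -0.03. One of the 10, Ednrb, was at least 2-fold lower, and 3.67% of all genes were called and at least 2-fold changed. In 4 of the 10 genes, Tek, Plvap, Car4 and Ednrb, all 6 DQ-12 rats lay below all 6 vehicle rats, which was the case for 3.51% of all genes. The exact permutation test (2-sided, 924 splits of 12 rats) gave p = 0.00217 for these 4 genes, the smallest it can give. Separate groups always give this value, so that it adds nothing to the separation. For the other genes the same test gave p from 0.00649 (Vegfa) to 0.0584 (Flt1), with 462 splits for Aplnr.

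**Figure D1:**
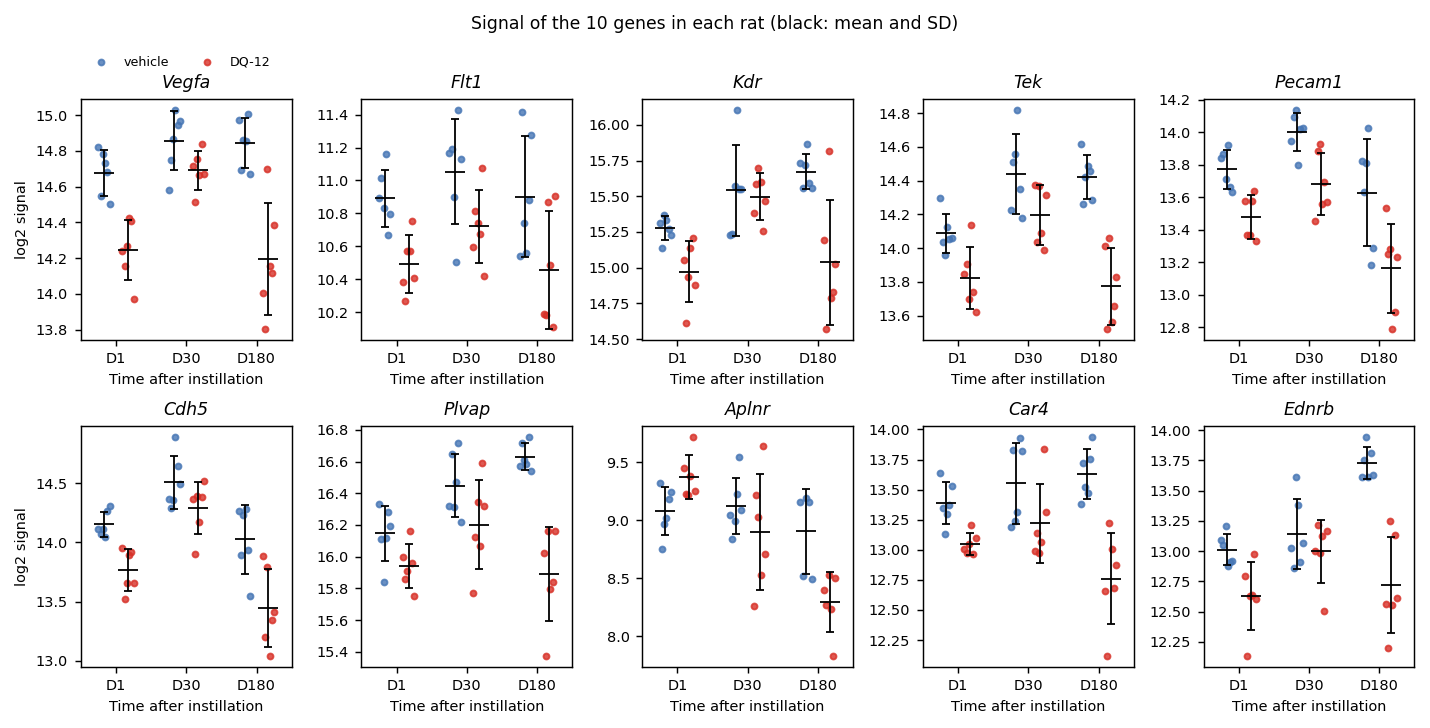
Normalized log2 signal of each gene (y axis) in each rat (points) by time after instillation (x axis), vehicle in blue and DQ-12 in red, with the mean and SD of each group in black (n = 6 rats, 5 for Aplnr in vehicle rats at D180). At D180 the red points of Tek, Plvap, Car4 and Ednrb all lie below the blue points, and the vehicle level of Ednrb is higher at D180 (mean 13.73) than at D1 (mean 13.01).

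The ligand Vegfa had log2 signals in vehicle rats at D180 of 14.67 at the lowest, 14.86 at the median and 15.01 at the highest. In DQ-12 rats they were 13.80, 14.14 and 14.70. Of the 6 exposed rats, 5 lay below every vehicle rat, and the highest exposed rat overlapped the vehicle range. The log2 FC was -0.65 (SE 0.11, adjusted p = 5.17e-05), which left 63.8% of the vehicle level.

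Kdr, the receptor through which most VEGF signals in endothelial cells are passed on, measured 15.56, 15.66 and 15.86 in vehicle rats (lowest, median, highest). It measured 14.57, 14.93 and 15.82 in DQ-12 rats. Again 5 exposed rats lay below every vehicle rat, and DQ-12 replicate 3 was within the vehicle range for Kdr as for Vegfa. The log2 FC of Kdr was -0.63 (SE 0.15, adjusted p = 0.00224). Flt1, the decoy-like receptor, measured 10.54, 10.81 and 11.42 in vehicle rats and 10.11, 10.34 and 10.91 in DQ-12 rats. The ranges of Flt1 overlapped, its log2 FC was -0.45 (SE 0.16), and with an adjusted p of 0.0555 it was the only gene of the 10 that was not called at D180.

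Tek (Tie2) is the endothelial receptor of the angiopoietins, which keep vessels quiescent and tight. Its signal was 14.26, 14.44 and 14.62 in vehicle rats and 13.52, 13.74 and 14.06 in DQ-12 rats (lowest, median, highest). The groups were separate, with a log2 FC of -0.65 (SE 0.11, adjusted p = 5.82e-05), or 63.8% of the vehicle level.

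Pecam1 (CD31) and Cdh5 (VE-cadherin) hold endothelial cells to each other. Pecam1 measured 13.18, 13.72 and 14.03 in vehicle rats and 12.79, 13.24 and 13.53 in DQ-12 rats. Cdh5 measured 13.54, 14.08 and 14.29 in vehicle rats and 13.04, 13.38 and 13.89 in DQ-12 rats. Both overlapped between the groups, and both were called. The log2 FC was -0.46 (SE 0.12, adjusted p = 0.00757) for Pecam1 and -0.58 (SE 0.14, adjusted p = 0.00274) for Cdh5. With D180 fitted alone, the adjusted p was 0.121 for Pecam1 and 0.0584 for Cdh5.

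Plvap forms the diaphragms that span endothelial caveolae and fenestrae. Its signal was 16.54, 16.60 and 16.75 in vehicle rats, the tightest group of the gene (SD 0.08), and 15.38, 15.93 and 16.16 in DQ-12 rats. All exposed rats lay below all vehicle rats, and the log2 FC was -0.74 (SE 0.12, adjusted p = 4.48e-05).

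Car4 encodes a carbonic anhydrase anchored on the surface of alveolar capillaries, and Ednrb the endothelin B receptor. Car4 measured 13.38, 13.62 and 13.94 in vehicle rats and 12.12, 12.78 and 13.22 in DQ-12 rats, with a log2 FC of -0.87 (SE 0.16, adjusted p = 1.25e-04). Ednrb measured 13.61, 13.69 and 13.94 in vehicle rats and 12.20, 12.59 and 13.25 in DQ-12 rats. Neither gene overlapped between the groups. The log2 FC of Ednrb, -1.01 (SE 0.15, adjusted p = 1.08e-05), was the largest of the 10 and left 49.7% of the vehicle level.

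The receptor Aplnr, which binds apelin and marks general capillary cells, measured 8.49, 9.16 and 9.19 in the 5 vehicle rats with a usable spot and 7.83, 8.33 and 8.53 in the 6 DQ-12 rats. Vehicle replicate 5 was left out of this value because its spot was marked as an outlier. The ranges overlapped slightly, and the log2 FC was -0.61 (SE 0.19, adjusted p = 0.0206). The call was the least stable of the 9, since the adjusted p was 0.0601, 0.0651 and 0.0568 without vehicle replicate 1, 3 or 4, and 0.061 without DQ-12 replicate 5. With D180 fitted alone it was 0.0599.

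The D180 change was also seen within scan dates. On the date that held 3 arrays of each group, the difference between the group means was below 0 for 10 of the 10 genes, from -1.05 (Ednrb) to -0.20 (Flt1). On the other date with both groups, which held 1 array of each, it was again below 0 for 10 genes (-1.31 to -0.55). With scan date as a fixed block, 9 genes were called at D180 as well. With slide as a fixed block, 0 were called, and in that fit the groups were compared through the only slide that held both, with 1 array of each. The log2 FC of the 9 genes under that block lay between -1.05 for Ednrb and -0.40 for Cdh5.

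**Figure D2:**
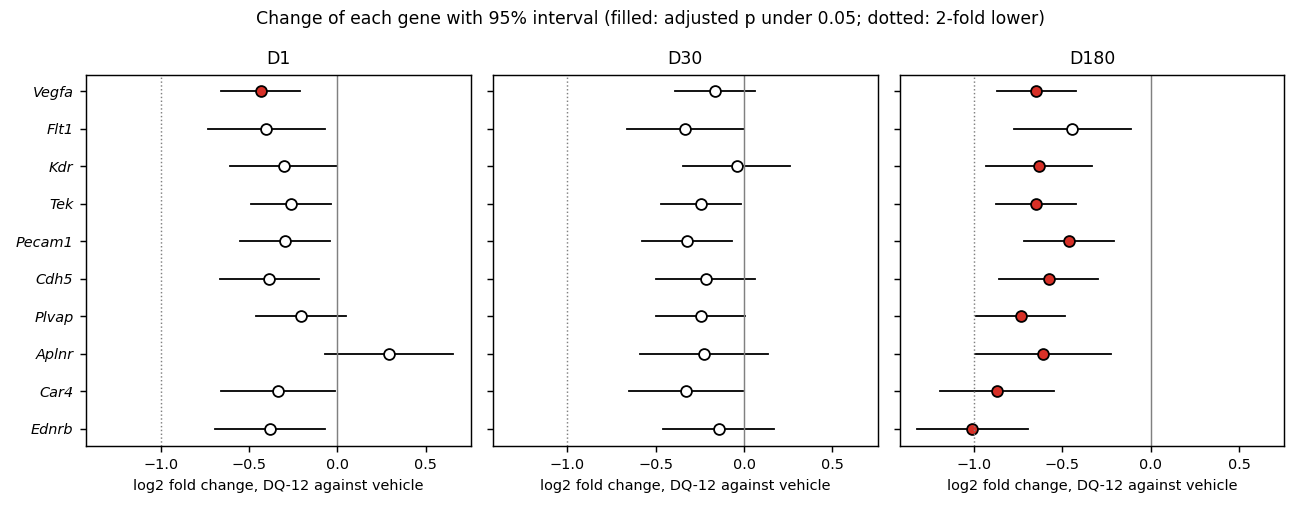
Log2 fold change of DQ-12 against vehicle rats (x axis) for each gene (y axis) at D1, D30 and D180, with its 95% confidence interval. Filled points have an adjusted p under 0.05, and the dotted line marks a 2-fold lower level. Vegfa alone is filled at D1, no gene at D30, and every gene except Flt1 at D180.

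At D1, Vegfa was the only gene of the 10 that was called. Its log2 signal was 14.50, 14.71 and 14.82 in vehicle rats (lowest, median, highest) and 13.97, 14.26 and 14.42 in DQ-12 rats. The groups were separate, with a log2 FC of -0.43 (SE 0.11, adjusted p = 0.00593), or 74.0% of the vehicle level. Of all genes, 16.5% were called at D1 and 8.76% were called and lower, so that 1 gene of 10 is close to that background. Of the 3903 genes called at D1, 2078 were lower, whereas after scaling to the 75th percentile of each array 3449 of 4603 were, with a median of -0.17 over all genes in place of -0.01. The median of the 10 genes at D1 was -0.31 under that scaling and -0.32 otherwise. None of the 10 passed the 2-fold threshold as well, which 3.12% of all genes did.

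The other 9 genes at D1 had log2 FC between -0.40 (Flt1) and 0.29 (Aplnr), and 8 of the 10 genes had an unadjusted p under 0.05, compared with 6929 of 23721 genes. Besides Vegfa, only Cdh5 was separate between the groups at D1. It measured 14.05 to 14.31 in vehicle rats and 13.53 to 13.95 in DQ-12 rats, with a log2 FC of -0.38 (SE 0.14, adjusted p = 0.0533). In 6.04% of all genes the 6 DQ-12 rats lay below the 6 vehicle rats at D1. Aplnr was the only gene of the 10 with a positive difference, 8.75, 9.10 and 9.32 in vehicle rats against 9.22, 9.32 and 9.72 in DQ-12 rats (log2 FC 0.29, SE 0.18, adjusted p = 0.29).

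The D1 values rest on arrays scanned mostly apart. Against the 1 vehicle array of the same scan date, the mean of the 6 DQ-12 arrays was lower by 0.54 on the log2 scale for Vegfa and by 0.35 for Cdh5, whereas it was higher by 0.10 for Plvap and by 0.40 for Aplnr. With scan date as a fixed block, the adjusted p of Vegfa at D1 was 0.277 (log2 FC -0.54), and with slide as a fixed block it was 0.19 (log2 FC -0.52). With scan date as a random block it was 0.0384. Over all genes, 1706 were called at D1 with that random block, 818 of them lower, compared with 3903 and 2078 without a block. The D1 shares over all genes and the D1 calls of the lists below were counted without a block and rest on the same arrays. Markers of other cells moved at D1 as well. Of 8 alveolar type 1 markers, 5 were lower at D1, with summed linear signals of 371900 to 417100 in vehicle rats and 273300 to 363500 in DQ-12 rats. Of 7 macrophage markers 3 were higher, among them Spp1 (6.99), and 2 had a log2 FC below 0, with sums of 9003 to 14980 against 16350 to 25240. Of 6 neutrophil markers 2 were higher, with overlapping sums of 8584 to 19320 against 11630 to 27650. Of 4 leukocyte markers, in contrast, 2 were called lower and 0 higher, with overlapping sums of 65890 to 85660 against 54630 to 69870. Their part in the D1 change of Vegfa was not tested.

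At D30, 0 of the 10 genes were called, while 4.06% of all genes were called and 1.27% were called and lower (302 of 962 calls, or 503 of 1124 after 75th percentile scaling). The 2-fold threshold together with the adjusted p was passed by 1.06% of all genes. The log2 FC of all 10 genes was below 0, from -0.33 (Flt1) to -0.04 (Kdr), with a median of -0.24 compared with -0.02 over all genes. In limma, 4 of the 10 had an unadjusted p under 0.05, as did 3763 of the 23721 genes, and the groups overlapped for every one of the 10. Groups were separate with DQ-12 lower for 0.561% of all genes at D30.

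The ranges at D30 show how close the groups were. Vegfa measured 14.58, 14.91 and 15.03 in vehicle rats and 14.51, 14.69 and 14.84 in DQ-12 rats (log2 FC -0.16, SE 0.11). Ednrb measured 12.86, 13.05 and 13.61 in vehicle rats and 12.50, 13.06 and 13.22 in DQ-12 rats (log2 FC -0.14, SE 0.15). Pecam1 had the lowest adjusted p of the 10 at D30, 0.162, with 4 of 6 DQ-12 rats below every vehicle rat (log2 FC -0.32, SE 0.12). With array weights, Car4 (log2 FC -0.52, adjusted p = 0.012) and Flt1 (log2 FC -0.45, adjusted p = 0.0337) were called at D30, and with slide as a fixed block Tek was (log2 FC -0.43, adjusted p = 0.0422).

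Being called at D180 and not earlier does not show that a change differed between time points, so that the difference was tested itself. Between D180 and D1, the change differed for 1 gene of the 10, Aplnr, compared with 4.65% of all genes. Its log2 FC went from 0.29 at D1 to -0.61 at D180, a difference of -0.90 (SE 0.26, adjusted p = 0.0381). With slide or scan date as a block, fixed or random, 0 genes were called, and the same was true without any 1 of 12 rats, 3 from each of the D1 and D180 groups (vehicle D1 replicates 2, 3 and 4, DQ-12 D1 replicates 1, 4 and 5, vehicle D180 replicates 1, 3 and 4, DQ-12 D180 replicates 2, 4 and 5). Without DQ-12 D180 replicate 3, 3 genes were called in this comparison and 3 in that of D180 with D30. Between D180 and D30, 0 of the 10 genes differed (0.249% of all genes), and 6 of the 10 had an unadjusted p under 0.05, as did 2811 of 23721 genes. The largest difference there was that of Ednrb, -0.87 (SE 0.22, adjusted p = 0.0684). Between D30 and D1, 0 of the 10 genes differed (2.21% of all genes), with 1 unadjusted p under 0.05 (3827 of all genes).

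The level in vehicle rats moved as well. The mean log2 signal of Ednrb in vehicle rats was 13.01 ± 0.13 at D1, 13.14 ± 0.29 at D30 and 13.73 ± 0.13 at D180 (SD, n = 6), while in DQ-12 rats it was 12.63 ± 0.28, 13.00 ± 0.26 and 12.72 ± 0.40. The order of the vehicle levels of Ednrb was D1, D30, D180, and the D1 and D30 ranges overlapped while the D180 range began just above the D30 range. Kdr in vehicle rats was at 15.28 ± 0.08, 15.54 ± 0.32 and 15.67 ± 0.12, and Plvap at 16.15 ± 0.17, 16.45 ± 0.20 and 16.63 ± 0.08. Cdh5 had a different order in vehicle rats, with 14.15 ± 0.11 at D1, 14.51 ± 0.23 at D30 and 14.03 ± 0.29 at D180. Age, time after instillation and scan date cannot be told apart in these vehicle levels.

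Of the 10 genes, 4 had several probes, and 17 probes in all measured the 10 genes. At D180 the log2 FC was below 0 for 17 of the 17 probes, and 14 were called lower in a fit of every probe. At D30 it was below 0 for 17 probes, with 0 called, and at D1 for 13 probes, with 1 called. The 3 Vegfa probes gave -0.65, -0.71 and -0.54 at D180, all called, and -0.43, -0.43 and -0.26 at D1. The second Cdh5 probe, which was dimmer, gave -0.43 at D180 (SE 0.20, adjusted p = 0.151).

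For Flt1, the other 3 probes gave -0.49, -0.49 and -0.44 at D180, and 2 of them were called (adjusted p = 0.00788 and 0.0238). With the mean of all Flt1 probes in place of the brightest, Flt1 was called at D180 (log2 FC -0.46, adjusted p = 0.00724). At D1 the Flt1 probes disagreed, with -0.40 for the brightest and -0.08, 0.02 and 0.20 for the others. The Ednrb probes also differed at D1, with -0.38 for the one used and 0.01 for the second, whereas at D180 both were called lower (-1.01 and -0.79). In the fit of every probe, the change of the second differed between D180 and D1 (-0.79, SE 0.20, limma adjusted p = 0.0174). That of the probe used did not (-0.63, SE 0.22, limma adjusted p = 0.104). The sequences of 1 further probe each of Vegfa (log2 FC -0.54 at D180) and Ednrb (-0.79), which gave another readout of the ligand and of the gene with the largest change, are shown here.
Vegfa A_44_P1164111 (chr9:10531934-10531993, rn4, plus strand): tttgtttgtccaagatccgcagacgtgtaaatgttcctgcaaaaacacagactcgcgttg
Ednrb A_64_P004974 (chr15:87896574-87896633, rn4, minus strand): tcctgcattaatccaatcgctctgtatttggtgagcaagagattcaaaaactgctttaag

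**Figure D3:**
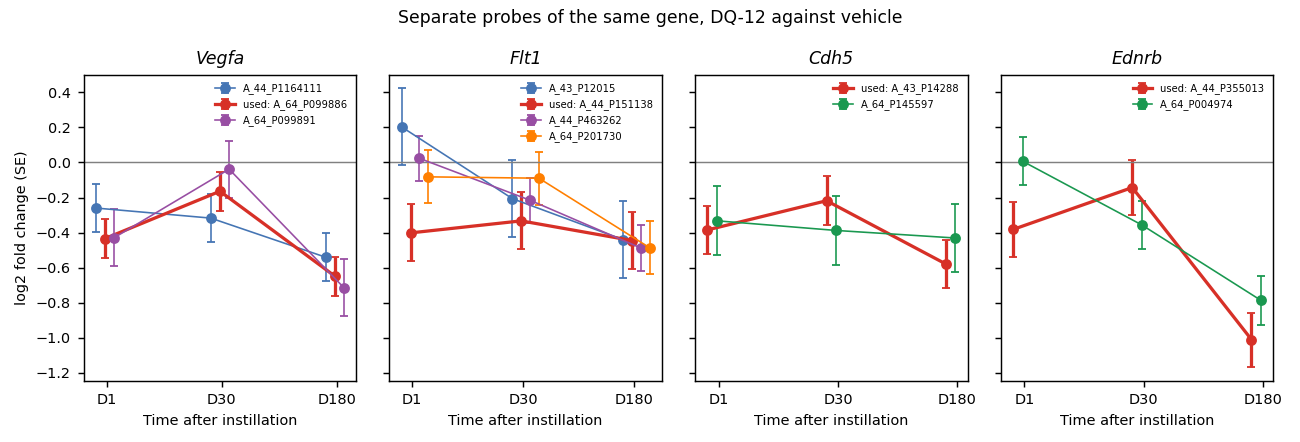
Log2 fold change of DQ-12 against vehicle rats (y axis) at each time (x axis) for every probe of the 4 genes with several probes, with the SE as error bars and the probe used in red. All lines lie below 0 at D180, while at D1 the Flt1 probes range from -0.40 to 0.20 and the second Ednrb probe is at 0.01.

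Since these genes moved together at D180, the bases before the start of 4 of them are shown, for the ligand, its main receptor, the diaphragm gene and the gene with the largest change. They come from the RefSeq promoter table of GRCr8, in which 6 of the 10 genes had an entry (Vegfa, Flt1, Kdr, Plvap, Car4 and Ednrb) and Tek, Pecam1, Cdh5 and Aplnr had none. Only bases outside the annotated gene are printed, and capitals mark the GC box GGGCGG, read on both strands (CCGCCC on the other).
Vegfa (chr9:22452604-22452853, plus strand): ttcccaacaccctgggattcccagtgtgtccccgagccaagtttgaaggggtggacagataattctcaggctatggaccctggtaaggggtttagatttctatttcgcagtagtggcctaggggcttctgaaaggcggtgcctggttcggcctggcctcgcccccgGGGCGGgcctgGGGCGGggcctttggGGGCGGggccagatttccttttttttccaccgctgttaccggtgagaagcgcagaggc
Kdr (chr14:32571813-32572030, plus strand): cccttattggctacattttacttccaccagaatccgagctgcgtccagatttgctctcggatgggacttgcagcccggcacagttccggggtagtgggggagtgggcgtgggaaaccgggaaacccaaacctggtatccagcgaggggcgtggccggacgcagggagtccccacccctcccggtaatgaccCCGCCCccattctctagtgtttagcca
Plvap (chr16:18231280-18231529, minus strand): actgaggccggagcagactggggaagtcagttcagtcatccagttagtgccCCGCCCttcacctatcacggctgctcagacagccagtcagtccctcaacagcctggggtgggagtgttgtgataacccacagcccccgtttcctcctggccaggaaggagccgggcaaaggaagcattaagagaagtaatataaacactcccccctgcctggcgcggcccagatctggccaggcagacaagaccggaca
Ednrb (chr15:87086766-87087015, minus strand): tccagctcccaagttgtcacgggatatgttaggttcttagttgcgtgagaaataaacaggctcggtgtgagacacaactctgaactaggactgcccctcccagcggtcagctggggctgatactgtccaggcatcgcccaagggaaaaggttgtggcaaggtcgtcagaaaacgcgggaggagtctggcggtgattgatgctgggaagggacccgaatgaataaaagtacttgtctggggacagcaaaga

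The GC box, the motif of Sp1-type factors, occurred 3 times before Vegfa, once each before Kdr and Plvap, and not in the Ednrb window. Vegfa has a further entry in the table, which starts within the gene and held 0 GC boxes. It is present in the 250 bases before the start in 30.5% of 33469 rat promoters. The letters GGAA (TTCC on the other strand), the core bound by ETS factors such as Erg, occurred 4 times each in the windows of Vegfa, Kdr and Plvap and 2 times in that of Ednrb, and 93.2% of all promoters hold them, with a median of 3 matches. The letters ACGTG, the core of hypoxia response elements, were in none of the 4 windows and are in 16.6% of all promoters. Of the other members with an entry, Car4 held 2 matches of ACGTG in its 250 bases and Flt1 held 0. A match in these letters is a description of the window only.

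The variation of the 10 genes among rats of the same group was compared by pairs. Over all 45 pairs, after subtraction of the group means, 35 correlations were positive and the median r was 0.31. Over all pairs of the 23517 genes measured on every array, 50.2% were positive and the median r was 0.00. Of the 45 pairs, 12 had an adjusted p under 0.05 for Pearson's r (100000 permutations of arrays within groups, 2-sided, Benjamini–Hochberg over the 45 pairs), and 17 had one for Spearman's rho. Without the 2 arrays farthest from the median of the first gene of a pair, these 12 correlations remained positive. Arrays share slides and scan dates, and the number of pairs was 3 with slide means removed (Vegfa and Kdr, Kdr and Cdh5, Kdr and Aplnr) and 16 with scan date means removed. The D180 arrays lay on 10 slides, most of them alone on theirs, so that removing slide means left those arrays no variation. Outside the 2 of 6 scan dates that held both groups, D180 arrays were alone on their date, and removing scan date means left them no variation either. The permutations still treated all arrays of a group alike, so that the counts of 3 and 16 pairs are not valid tests. The values with slide or scan date means removed therefore cannot show which correlations depend on slide or scan date.

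Vegfa and Kdr had the highest correlation (r = 0.68, permutation adjusted p = 0.0072, rho = 0.52, permutation adjusted p = 0.0258, n = 36). Without the 2 arrays farthest from the median of Vegfa, r for this pair was 0.46. Kdr was also correlated with Cdh5 (r = 0.63), Ednrb (r = 0.63) and Tek (r = 0.59), while Plvap was correlated with Car4 (r = 0.67). With slide means removed, under the limit given above, r was 0.69 for Vegfa and Kdr and 0.72 for Kdr and Cdh5. Kdr and Ednrb (r = 0.41), Kdr and Tek (r = 0.12) and Plvap and Car4 (r = 0.25) then had no call. For the aerocyte genes Car4 and Ednrb, r was -0.08 (permutation adjusted p = 0.823). It was 0.26 with slide means removed and 0.47 with scan date means removed, both under the limit given above. For Flt1 and Kdr, r was -0.01, 0.36 and 0.48 in the same order, with no call. Leaving out the 2 arrays farthest from the median of the first gene left an r of at most 0.58 in any pair, that of Flt1 and Car4.

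**Figure D4:**
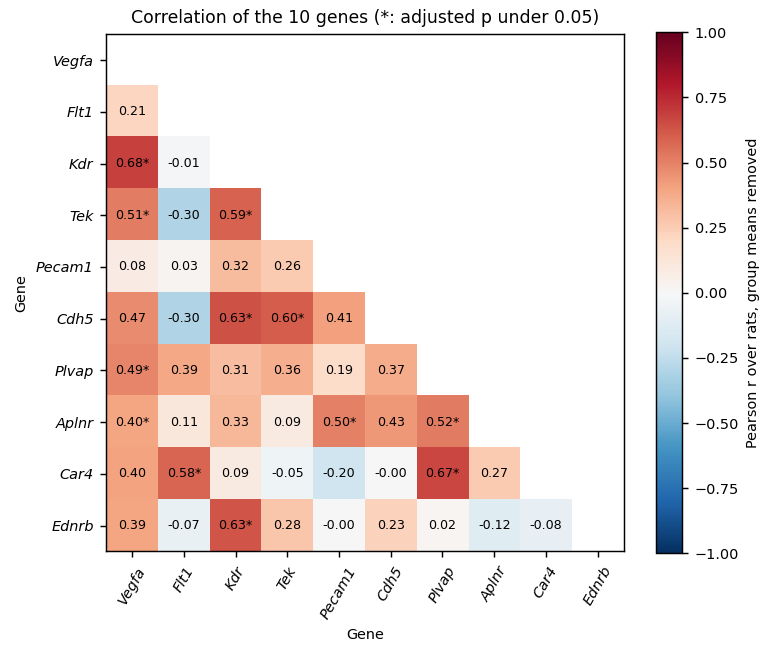
Pearson's r between the log2 signals of each pair of the 10 genes (x and y axis) over the arrays with group means subtracted (36 arrays, 35 for pairs with Aplnr), with red for positive and blue for negative values. Asterisks mark the 12 pairs with an adjusted permutation p under 0.05, among them Vegfa with Kdr (0.68) and Plvap with Car4 (0.67).

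For each of the 10, the 3 genes with the highest Pearson correlation over the arrays, after subtraction of the group means, were taken as most like it. Cdh5 was most like Myct1 (r = 0.77), Nkain4 (0.73) and Sgip1 (0.71), Plvap most like Vamp2 (0.74), Wscd1 (0.73) and Ace (0.72), and Aplnr most like Plxnd1 (0.72), Tmem198b (0.71) and Mettl7a (0.70). Vegfa was most like Slc29a1 (0.85), LOC102555329 (0.75) and Mrvi1 (0.73), and Tek most like Cavin1 (0.73), Tbx3 (0.71) and Cnn3 (0.71). The nearest genes were Tox3, Fyn and Marcks for Kdr (0.81 to 0.79), Wdr3, Piezo2 and Abcc9 for Flt1 (0.82 to 0.78), Unc13d, Tm9sf1 and Cnpy2 for Pecam1 (0.81 to 0.78), Csrnp3, Nop53 and Gna12 for Car4 (0.86 to 0.84), and Cdk17, Senp7 and Fbxo11 for Ednrb (0.89 to 0.86). Each set of 3 ranked highest among 23720 other genes in the same arrays (36, or 35 for Aplnr) and carries no test.

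Other genes of the same pathways were read from fixed lists that left the 10 genes out. Of 45 such genes tested, 23 were called lower and 1 higher at D180, compared with 8 lower at D1 and 3 lower at D30, with 0 called higher at either time. Of all genes tested, 9.11% were called lower at D180, 8.76% at D1 and 1.27% at D30. These shares are the background of the lower calls in every list below. In either direction, 17.1%, 16.5% and 4.06% of all genes were called, in the same order. A single call in a short list at D1 or D180 says little beside these shares. The 3 genes at D30 were Bmp6 (-0.79), Cldn5 (-0.78) and Egln1 (-0.32). Their median log2 FC was -0.45 at D180, -0.11 at D1 and -0.20 at D30.

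Among the other VEGF ligands and receptors, 2 of 7 were lower at D180 and 1 was higher. Pgf, placental growth factor, a ligand of Flt1, fell by 0.74 on the log2 scale (SE 0.21, adjusted p = 0.00973). Vegfc, the lymphatic growth factor, fell by 0.39 at D180 and by 0.43 at D1. Nrp2, a VEGF co-receptor of lymphatic and venous cells, rose by 0.46 (adjusted p = 0.00367).

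In the angiopoietin system, 3 of 4 genes were lower at D180. Angpt2, the ligand that antagonizes Tek in resting vessels, had a log2 FC of -0.74, the activating ligand Angpt1 of -0.45, and Ptprb, the phosphatase that dampens Tek signaling, of -0.74. The apelin gene Apln, ligand of Aplnr and itself a gene of aerocytes, was called lower at D1 (-0.51, adjusted p = 0.0495) and at D180 (-0.64, adjusted p = 0.012). In the endothelin system, 2 of 4 genes were lower at D180, the ligand Edn3 (-0.82) and the converting enzyme Ece1 (-0.41), while Edn1, the main vascular endothelin, had a log2 FC of -0.07 (adjusted p = 0.908).

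Of 9 Notch and arterial genes, 5 were lower at D180, among them the venous receptor Ephb4 (-0.77), Notch4 (-0.70), the connexin Gja4 (-0.69) and the arterial ligand Efnb2 (-0.64). At D1, 2 of the 9 were lower, Dll4 (-1.36), a Notch ligand of sprouting and arterial cells, and the connexin Gja5 (-0.48). Of 7 genes of BMP signaling, 4 were lower at D180, the receptors Bmpr2 (-0.74) and Acvrl1 (-0.73), the target Id1 (-0.50), and the ligand Gdf2 (-1.10), which was well above background in 1 of 6 DQ-12 and 5 of 6 vehicle rats. Of 6 genes of the barrier and of sphingosine signaling, 4 were lower at D180, the tight junction gene Cldn5 (-0.90), Esam (-0.54), Tjp1 (-0.51) and the receptor S1pr1 (-0.51).

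Of 7 genes of the hypoxia pathway, 2 were called lower at D180, the oxygen sensor Egln1 (-0.52) and the factor Epas1 (-0.37). Egln1 was lower at D1 (-0.42) and D30 (-0.32) as well. At D180 the log2 FC was below 0 for 3 of the 7 genes, with a median of 0.07. Hif1a, the factor best known for switching on Vegfa, had a log2 FC of 0.07 at D180 (adjusted p = 0.843) and 0.01 at D1.

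Of 26 markers of endothelial cells other than the 10 genes, some of which are also in the lists above, most had a log2 FC below 0. This held for 24 at D180, 24 at D30 and 21 at D1. Robo4 was above 0 at D180 (0.23) and at D1 (0.305), and Gpihbp1 at D180 (0.01), without a call. Of 26 tested, 20 were called lower at D180, 5 at D1 and 4 at D30, and 0 were called higher. Among those called, the largest changes at D180 were those of the transcription factor Sox7 (-0.91), Cldn5 (-0.90), the sialomucin Emcn (-0.86) and Tmem100 (-0.85). The summed linear signal of the 26 genes at D180 was 191000 to 215000 in vehicle rats and 103700 to 150100 in DQ-12 rats, with no overlap. At D1 it was 164300 to 219100 and 141000 to 172000, and at D30 197700 to 252800 and 155200 to 214200, with overlap at both times.

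Finer endothelial types were read from shorter marker lists. Of 4 aerocyte markers apart from the 10 genes, 3 were lower at D180 (Prx, -0.78, Tbx2, -0.68, and Apln, -0.64). Of 4 markers of general capillaries, 2 were (Ptprb, -0.74, and Cd93, -0.62), while Gpihbp1 had a log2 FC of 0.01 (adjusted p = 0.988) and was well above background in 4 of 6 rats of each group. Of 5 lymphatic markers, 2 were lower at D180 (Lyve1, -0.78, and Mmrn1, -0.56). No difference between these lists was tested.

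**Figure D5:**
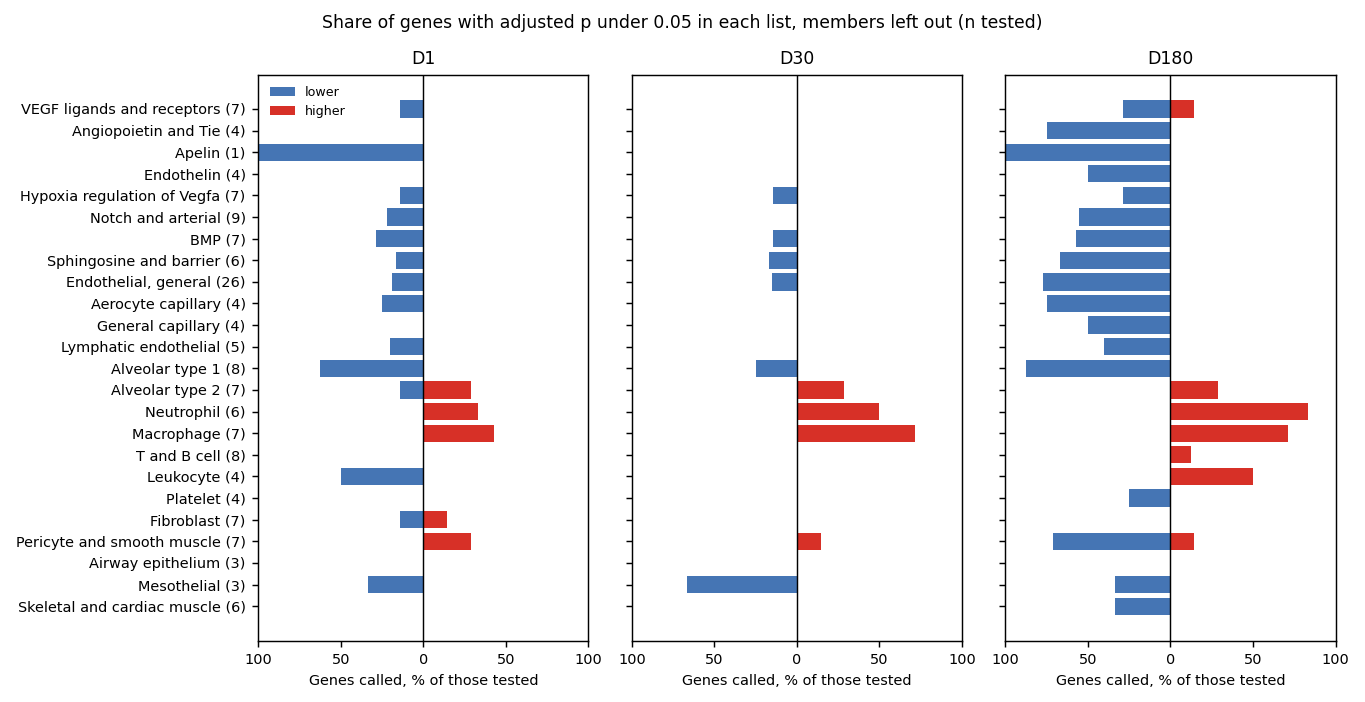
Share of the genes of each list (y axis, with the number tested) that had an adjusted p under 0.05, as a percentage of the genes tested (x axis), lower in DQ-12 rats to the left in blue and higher to the right in red, at D1, D30 and D180. The 10 genes are left out and lists share some genes. At D180, 20 of 26 general endothelial genes and 7 of 8 alveolar type 1 genes are lower, and 5 of 6 neutrophil and 5 of 7 macrophage genes are higher.

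Markers of other cells moved at the same time. At D180, 5 of 7 macrophage markers were higher, with Spp1 at 7.87 (well above background in 4 of 6 vehicle rats), Marco at 2.62 (2 of 6 vehicle rats), Gpnmb at 2.36 and Cd68 at 1.55 on the log2 scale. Their summed signal was 10850 to 16920 in vehicle rats and 38460 to 75980 in DQ-12 rats. Of 6 neutrophil markers, 5 were higher, with S100a9 at 2.57, Il1r2 at 2.32, S100a8 at 1.56 and Cxcr2 at 1.55, and their summed signal was 8404 to 16080 and 47770 to 68010. At D30, when 0 of the 10 genes were called, 5 of 7 macrophage and 3 of 6 neutrophil markers were higher, with summed signals of 7659 to 10080 against 18100 to 25840 and of 7657 to 17210 against 22510 to 62920.

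Genes of other lung cells were also lower. At D180, 7 of 8 alveolar type 1 markers were lower, with Cav1 (-0.80), a gene that endothelial cells also express, and Rtkn2 (-0.75) first. The summed signal of this list was 429300 to 507600 in vehicle rats and 292900 to 362800 in DQ-12 rats. Of 7 pericyte and smooth muscle markers, 5 were lower at D180, among them Cspg4 (-0.87), Myh11 (-0.82) and Rgs5 (-0.82), and Notch3 was higher (1.15), with summed signals of 7616 to 9765 against 5141 to 6384. Of 6 muscle genes, 2 were lower, Myl7 (-0.92) and Myh6 (-0.60), with sums of 29930 to 47290 against 19120 to 33140.

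Alveolar type 2 markers, which show that the samples are lung, were well above background on all 36 arrays for 7 of 7 genes. Of these, 2 were higher at D180, Sftpa1 (0.47) and Lamp3 (0.37), and the list had sums of 622100 to 672400 in vehicle rats and 605600 to 720000 in DQ-12 rats. Sftpc had a log2 FC of 0 at D1 and D30 and -0.04 at D180 (SE 0.05), and quantile normalization can hold the brightest probes at a fixed value. Linear sums weigh the brightest genes most, so these sums cannot show whether the content of type 2 cells changed. Fibroblast markers had 0 of 7 genes called at D180, with sums of 31280 to 41530 and 28870 to 34240. Of 3 mesothelial markers 1 was lower (Upk3b, -0.80), of 4 platelet markers 1 was lower (Gp9, -0.54), of 8 T and B cell markers 1 was higher (Cd4, 0.40), of 4 leukocyte markers 2 were higher (Cd53, 0.84, and Ptprc, 0.32), and of 3 airway markers 0 were called. The part of these cell types in the change of the 10 genes was not tested.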

How the data were processed

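Per the labels, each rat had 1 single-color array, from which the authors made the deposited intensities with Agilent Feature Extraction 12.0.1.1. The deposited log2 values, an alternative here, matched log2 intensities scaled to the 75th percentile and centered on each probe's median (r = 0.99995). Outlier spots were left out and spots averaged by probe. Probes brighter on 6 or more arrays than 95% of 308 negative controls were quantile normalized, and the brightest probe represented a gene. limma 3.58.1 (R 4.3.3) was fitted to 36 arrays in 6 groups taken from the labels, with 2-sided tests and Benjamini–Hochberg adjustment over 23721 genes, and was tested on simulated data. The authors corrected for batch without naming the variable in the methods. Here no batch term was used, which departs from their processing, and slide and scan date were tried as alternatives. The number of arrays limits the precision. The 10 genes and all lists were chosen with earlier results of these data known. Named list genes were the called ones with the largest changes (up to 4 a list). Efnb2, Gja5, Id1, Edn1, Hif1a, Gpihbp1, Robo4 and Sftpc were added after their values were seen. The 3 genes most correlated with each of the 10 were also named. Alternatives changed signal, scaling, filter, probe, model, block and rats, and keeping outlier spots was added after seeing the data. Replicate numbers did not pair the rats (correlation of deviations -0.13 to 0.22 over 18 pairs).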

Additional observations from a re-analysis of the deposited data

Results flagged for a closer look

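In DQ-12 rats at D30, replicate 5 had an Ednrb log2 signal of 12.50, and the next rat had 12.99. The gap was 0.674 of the range of the group, above Dixon's 95% critical value for 6 samples. This was the only such sample among 60 groups of values checked, of which chance marks about 1 in 20. Without that rat, the log2 FC of Ednrb at D30 was -0.04.

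The change of Aplnr differed between D180 and D1 by -0.90 on the log2 scale (adjusted p = 0.0381, limma interaction), with a positive value at D1 and a negative one at D180. The adjusted p was under 0.05 in 12 of 16 settings. The exceptions were slide and scan date as a block, fixed or random.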

How the results depend on the processing

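At D180, 0 of 170 values of single genes under other settings reversed, 150 kept their side of the threshold, 12 lost the call and 8 gained it, all of the gains being Flt1. Of these values, 10 came from the exact permutation test. It keeps the log2 FC of the main fit, so that those 10 could not reverse, and its p was not adjusted. The count of 9 genes became 0 with slide as a fixed block, which rests on 1 array per group, and 1 with a 2-fold threshold. The count at D1 (1 gene) was 2 with 75th percentile scaling, median intensity, normexp, the well-above-background filter, the mean of probes and trend with robust moderation, 5 with each time point alone, 4 with array weights, and 0 with slide or scan date as a fixed block or a 2-fold threshold. The count at D30 (0 genes) was 2 with array weights and 1 with slide as a fixed or random block. The difference between D180 and D30 (0 genes) was called for 1 gene with normexp, the well-above-background filter, trend or array weights. That between D180 and D1 (1 gene) was called for 2 with that filter, the mean of probes, trend or array weights, and for 0 with either block, fixed or random, or a 2-fold threshold. Of 45 pairs of genes, 3 were correlated with slide means removed, in place of 12, in a setting that left most D180 arrays no variation. The cause of these changes was not tested. The sign of the log2 FC reversed for Flt1 at D1 with other probes (0.20 and 0.024), Ednrb at D1 with the other probe (0.0072), Kdr at D30 with array weights (0.0395) and Plvap at D1 with slide (0.0925) or scan date (0.10) as a fixed block.

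With each rat left out in turn, the count was 1 to 2 at D1, 0 to 0 at D30 and 8 to 10 at D180, and 0 to 3 for the difference of D180 from D30 and 0 to 3 for that from D1. The log2 FC of Kdr at D30 ranged from -0.11 to 0.07. Replicate numbers were shared by the groups but do not pair the rats (5 of 18 pairs matched best with their own number). With the replicate block the count was 2 at D1, 0 at D30 and 9 at D180. Signal over background limits the dimmest Flt1 probe, well above background on 35 arrays.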
